A study of Macaca mulatta with 4 samples.

Results

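The 7 genes described here are those of the aryl hydrocarbon receptor (AHR) pathway and its cytochrome P450 targets: AHR, its partners ARNT and ARNT2, the feedback genes AHRR and TIPARP, and CYP1A1 and CYP1B1. They were chosen by symbol as a pathway, on the basis that a high CYP1B1 level had been seen in these same libraries, so their levels are a description and carry no test. All 7 symbols matched a row of the 21314 gene rows in the table. RF/6A is a cell line of rhesus macaque (Macaca mulatta), and its labels give the cell type as chorioretinal. Its cells were grown in Dulbecco's modified Eagle medium with 10% heat-inactivated serum, with penicillin and streptomycin at 100 U/mL each, at 37 °C and 5% CO2. Total RNA gave 4 libraries, whose titles call them static. These form 1 group of 4 replicates of 1 line from 1 supplier lot, with no agent added and no flow-exposed group analysed here. Nothing says that the libraries came from separate cultures, so each SD measures only the spread between these samples, which may be technical.

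AHR is a transcription factor of the bHLH-PAS family that waits in the cytosol in a chaperone complex. A planar aromatic ligand, from the environment or made from tryptophan, releases it to the nucleus, where it pairs with ARNT and binds xenobiotic response elements. CYP1A1 is its most inducible target and CYP1B1 another. Both encode microsomal monooxygenases that oxidise polycyclic hydrocarbons and oestrogens. AHRR competes with AHR for ARNT, and TIPARP, an ADP-ribosyltransferase, marks AHR for loss, so both close a feedback loop. CYP1B1 is known for its part in the eye, where its mutations cause primary congenital glaucoma.

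Each library held between 20366946 and 20550610 estimated counts. Values are given in CPM, the count per 1e6 counts of a library, after scaling by the trimmed mean of M-values (TMM), and a gene at 1 CPM or more in every library is called expressed. Library 2 stood apart: 16 of 16 matched ribosomal protein genes lay apart above the other libraries there by Dixon's gap test, described below. The same held for 21.8% of the 12453 genes that averaged 1 CPM or more. The ribosomal protein genes took 6.51% of the counts of library 2, against 3.03% to 3.29% elsewhere. Over 12167 genes that passed edgeR's filter on low counts, the common biological coefficient of variation was 44.7% over 4 libraries and 13.1% without library 2. Of the marker lists, all 10 fibroblast and mesenchymal genes were expressed, as were 6 of 7 pericyte and smooth muscle genes. The share expressed was 52.9% of all rows and 64.2% of rows with a symbol. Retinal pigment epithelium genes were expressed in 3 of 6 cases (RPE65, BEST1 and SERPINF1), with RGR at no count. RPE65 lay near the threshold, at 1.18 to 2.04 CPM. Among endothelial genes 1 of 9 was expressed (PECAM1, with ROBO4 at no count), and among melanocyte genes 1 of 3 (PMEL, with TYR at no count). KDR of the endothelial list and MITF of the pigment epithelium list missed the call only through library 2. They measured 0.432 and 0.617 CPM there, against 1.49 to 2.5 and 2.14 to 6.38 CPM elsewhere. No member of the photoreceptor and neuron list (of 5) or the hepatocyte list (of 6) was expressed, and the summed level of the hepatocyte list was 0.95 to 0.988 CPM in libraries 1, 3 and 4 and 2.1 CPM in library 2. Some lists moved with library 2. The summed retinal pigment epithelium list was 907 CPM there against 326 to 388 CPM, led by SERPINF1 (904 against 304 to 365 CPM), while BEST1 was at 1.48 against 15.1 to 29.8 CPM. The pericyte and smooth muscle sum was 828 against 325 to 375 CPM, led by TAGLN (764 against 247 to 301 CPM). The fibroblast sum was 46375 against 40944 to 42652 CPM with TMM scaling. As a share of counts the same list was lower in library 2, at 3.68% against 4.44% to 4.59%, so its direction depends on the scaling. In that list FN1 was at 3228 against 12620 to 14908 CPM. In what follows, values without library 2 are given where that library sets the spread. Means and SDs given without it keep the TMM factors fitted to all 4 libraries. The part that the composition of library 2 or these markers play in any result was not tested.

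AHR, the receptor (ENSMMUG00000012203), measured 101, 4.44, 109.7 and 85.2 CPM in libraries 1 to 4. Libraries 1, 3 and 4 ranged from 85.2 to 109.7 CPM, and library 2 lay far below them. The mean was 75.1 ± 48.2 CPM (SD, n = 4), and 98.7 ± 12.4 CPM without library 2 (n = 3). Library 2 had 72 AHR counts against 1885 to 2441 in the others, and the exact 95% Poisson interval of its level was 3.48 to 5.59 CPM. The median of the other libraries was 22.8 times the level in library 2, and 31.0 times with plain CPM.

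The chaperone complex that holds AHR in the cytosol was expressed throughout, with 7 of 7 matched genes called, against 52.9% of all rows and 64.2% of rows with a symbol. The list median was 5.78 ± 0.26 log2(CPM + 0.5), beside 1.85 ± 0.21 over all rows and 3.30 ± 0.27 over rows with a symbol. PTGES3, the p23 cochaperone, measured 269 ± 59.6 CPM (SD, n = 4), CDC37, a kinase-directed cochaperone of HSP90, 251 ± 110 CPM, and CUL4B, the scaffold of a ubiquitin ligase in which AHR can act, 111 ± 42.4 CPM. CDC37 measured 198, 416, 190.0 and 199 CPM in libraries 1 to 4, so the library lowest for AHR was the highest for CDC37. PTGES3 and CUL4B went the other way. PTGES3 was at 179.9 CPM in library 2 against 294 to 306 CPM, and CUL4B at 49.1 against 119 to 139 CPM. HSP90AA1 matched no row, and HSP90AB1, which has near-identical copies among which reads can be shared, measured 13.1 ± 4.63 CPM.

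**Figure D1:**
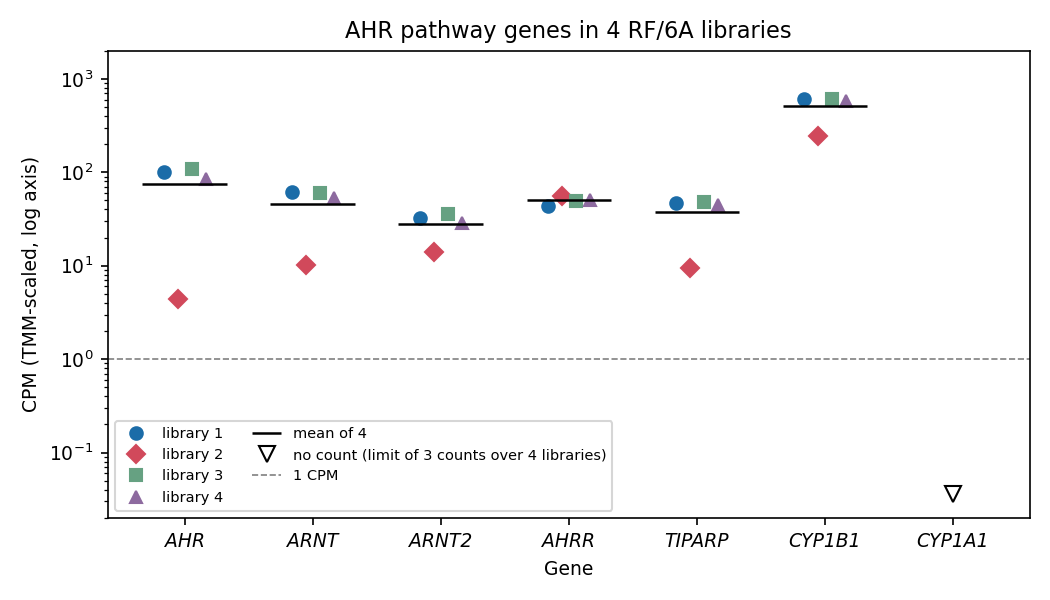
CPM on a log axis for each of the 7 genes in each of the 4 libraries, with a bar at the mean of 4 and a dashed line at 1 CPM. Library 2 is the lowest of the 4 for AHR (4.44), ARNT (10.1), ARNT2 (13.9), TIPARP (9.56) and CYP1B1 (247) and the highest for AHRR (56.1), whose rank turns with plain CPM. CYP1A1 had no count and is drawn at its limit of 0.0363 CPM.

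ARNT, the nuclear partner of AHR and of the hypoxia-inducible factors (ENSMMUG00000000541), measured 61.2, 10.1, 59.8 and 53.1 CPM in libraries 1 to 4. As for AHR, library 2 lay below libraries 1, 3 and 4. Its mean was 46.1 ± 24.2 CPM (SD, n = 4), and 58.1 ± 4.32 CPM without library 2 (n = 3). ARNT2, the paralogue best known from neural tissue (ENSMMUG00000011566), measured 32.8, 13.9, 35.8 and 28.7 CPM, a mean of 27.8 ± 9.69 CPM. Library 2 was again the lowest, by 2.35 times against the median of the others, whereas the same ratio was 5.91 for ARNT. ARNT counts were 1.67 to 1.87 times the ARNT2 counts in libraries 1, 3 and 4 and 0.726 times in library 2. That ratio is not divided by transcript length, so it describes counts and its change between libraries, not the molar balance of the partners.

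The listed bHLH-PAS relatives, some of which share ARNT as a partner, had 8 of 14 matched genes expressed (57.1%, beside 64.2% of rows with a symbol). The list median was 2.29 ± 0.48 log2(CPM + 0.5), below the 3.30 of rows with a symbol. EPAS1, which encodes hypoxia-inducible factor 2 alpha, measured 641 ± 215 CPM (SD, n = 4) and HIF1A 320 ± 179 CPM. ARNTL2, a clock protein of the same family, measured 33.4 ± 7.65 CPM. In library 2, HIF1A was at 52.3 CPM against 391 to 428 CPM in the others. The clock genes CLOCK and PER3 missed the call only through library 2, where CLOCK had no count and PER3 measured 0.123 CPM, and 10 of the 14 genes were called without it. NPAS1 reached 1 CPM in library 2 alone, at 1.11 CPM. SIM1, NPAS3 and NPAS4 stayed below 1 CPM in every library.

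Coregulators of the AHR and ARNT dimer were expressed in 11 of 12 matched cases (91.7%, beside 64.2%), with a list median of 6.02 ± 0.84 log2(CPM + 0.5). The corepressor NCOR1 measured 178 ± 43.6 CPM (SD, n = 4), the Mediator subunit MED1 132 ± 52.2 CPM, and SMARCA4, the BRG1 remodelling ATPase, 96.4 ± 5.2 CPM. SMARCA4 did not follow library 2, with 94.9 CPM there and 92.6 to 104 CPM elsewhere. NCOA2, a p160 coactivator, was the member not called, at 0.679 CPM in library 2 and 26.7 to 37.5 CPM in the others. RB1, a pocket protein that binds AHR, was singled out after its values were seen: it measured 4.81 CPM in library 2 and 80.3 to 91.3 CPM elsewhere.

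Of the feedback genes, AHRR (ENSMMUG00000000752) had the narrowest spread of the 6 detected genes over 4 libraries, with 43.7, 56.1, 49.4 and 50.4 CPM in libraries 1 to 4. The mean was 49.9 ± 5.1 CPM (SD, n = 4). Without library 2 its coefficient of variation was 7.56%, above those of CYP1B1 (3.8%), TIPARP (3.85%) and ARNT (7.44%). Library 2 was the highest with TMM scaling but the lowest with plain CPM, at 44.5 CPM against 47.1 to 54.2 CPM, so the direction of its small difference depends on the scaling. TIPARP (ENSMMUG00000000366) measured 46.4, 9.56, 48.4 and 44.8 CPM, with library 2 far below the other libraries under either scaling. Its mean was 37.3 ± 18.5 CPM, and 46.5 ± 1.79 CPM without library 2 (n = 3).

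Ratios of counts within a library need no scaling. There were 0.431 to 0.591 AHRR counts for each AHR count in libraries 1, 3 and 4 and 12.6 in library 2. For each AHR count there were 5.56 to 6.72 CYP1B1 counts in those 3 libraries and 55.5 in library 2. TIPARP and ARNT kept a nearer ratio, 0.757 to 0.843 in libraries 1, 3 and 4 and 0.945 in library 2. The genes of the pathway therefore differed unequally between library 2 and the rest. As these are counts, the size of a ratio also depends on transcript lengths, which the sources used here do not give, and the members are not ranked against each other.

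CYP1B1 (ENSMMUG00000013945), the P450 for which the group was put together, measured 614, 247, 609 and 573 CPM in libraries 1 to 4. Every library was high and library 2 lay below the other 3. The mean was 511 ± 177 CPM (SD, n = 4), and 599 ± 22.7 CPM without library 2 (n = 3), a coefficient of variation of 3.8%. By counts not divided by length, CYP1B1 stood above 99.1%, 96.8%, 99.1% and 99.0% of all rows in libraries 1 to 4. It alone took 0.0616% to 0.0663% of the counts of libraries 1, 3 and 4 and 0.0196% of those of library 2.

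CYP1A1 (ENSMMUG00000022481), the classical AHR target, had 0 counts in all 4 libraries, which allows up to 0.0363 CPM over the group (3 counts, counting error only). Its relative CYP1A2, the next gene to it in the RefSeq table of the T2T-MMU8v2.0 assembly, had 1 count, in library 2. CYP1B1 was thus at 247 CPM or more in every library and CYP1A1 was not detected at this depth. How complete the transcript model behind the CYP1A1 row is was not checked. Of the 7 genes, 6 were expressed (85.7%), against 52.9% of all rows and 64.2% of rows with a symbol. They were chosen with that known. In the same RefSeq table, used for names only since the authors' build is not given, CYP1A1 and CYP1B1 overlapped no other gene. AHR, AHRR, ARNT and TIPARP each overlapped 1 other annotated gene and ARNT2 overlapped 2, so without strand information reads of these genes and their overlaps may be mixed.

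Among all 46 rows named as cytochrome P450 genes, 7 were expressed (15.2%, beside 64.2% of rows with a symbol) and 18 had no count. CYP1B1 collected 90.5% of the counts of these named rows in library 1 (Wilson 95% interval 90.03 to 90.97) and 80.2% in library 2 (79.05 to 81.3). For libraries 3 and 4 the shares were 90.1% and 91.02%. These are shares of counts, not of molecules, and only of rows with a symbol. Rows without a symbol held 13.1% to 21.7% of all counts. Any P450 genes among them are missing from these shares and from the order below. The next P450 genes by counts were CYP20A1, an orphan P450, at 20.1 ± 3.12 CPM (SD, n = 4), and the fatty acid epoxygenase CYP2J2 at 10.99 ± 1.61 CPM. CYP4V2, a fatty acid hydroxylase mutated in a crystalline retinal dystrophy, measured 8.31 ± 4.82 CPM, with 1.17 CPM in library 2 and 9.63 to 11.5 CPM in the others. CYP27B1, the vitamin D 1-alpha-hydroxylase, measured 4.47 ± 0.813 CPM.

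**Figure D2:**
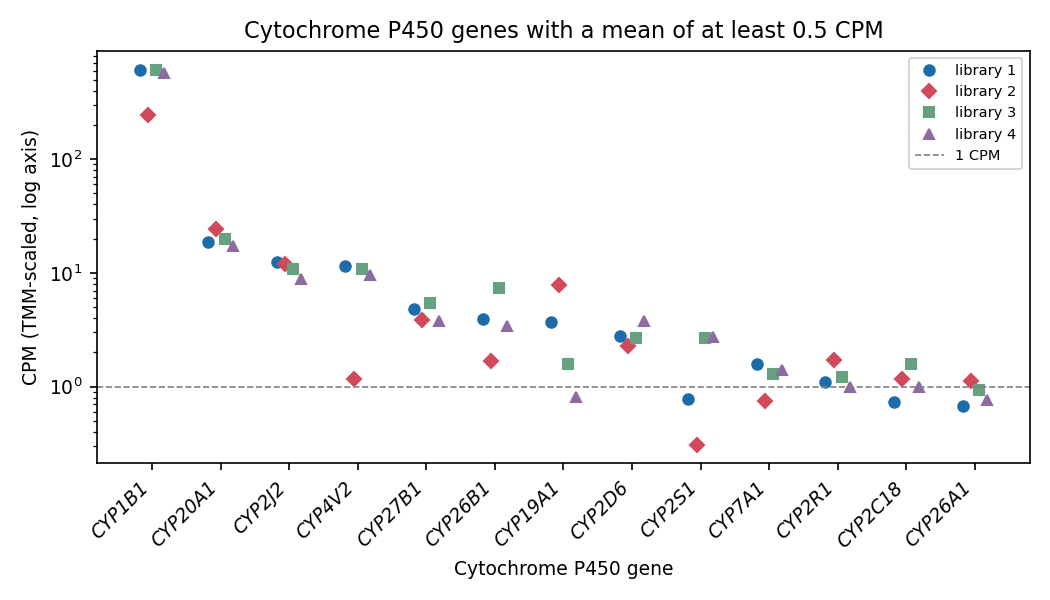
CPM on a log axis in each of the 4 libraries for the named cytochrome P450 genes that averaged 0.5 CPM or more, in the order of their mean counts, with a dashed line at 1 CPM. CYP1B1 lies at 247 to 614 CPM, and each of the other genes stays below 25 CPM in every library (CYP20A1 in library 2 is the highest, at 24.6 CPM).

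The machinery that serves microsomal P450s was expressed in 11 of 11 matched genes, beside 64.2% of rows with a symbol, with a list median of 4.30 ± 0.53 log2(CPM + 0.5). CYB5R3, the cytochrome b5 reductase, measured 156 CPM on average (128 to 201 CPM over the 4 libraries). ALAS1, the first enzyme of haem synthesis outside red cells, measured 54.9 ± 10.97 CPM (SD, n = 4), and UROD, a later step, 49.6 ± 27.5 CPM. POR, the reductase that passes electrons to CYP1B1 and was named for that role after its values were seen, measured 31.3, 48.9, 31.9 and 38.8 CPM in libraries 1 to 4. Here library 2 was high: 5 of the 11 genes lay apart above the other libraries there, against 21.8% of the 12453 genes that averaged 1 CPM or more, and 1 lay apart below (FECH, the ferrochelatase, at 2.1 CPM against 7.91 to 8.05 CPM).

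Other genes listed as AHR targets had 9 of 14 matched genes expressed (64.3%, beside 64.2% of rows with a symbol). The list median was 2.87 ± 0.43 log2(CPM + 0.5), below the 3.30 of rows with a symbol. NFE2L2, the antioxidant regulator NRF2, measured 208 ± 95.1 CPM (SD, n = 4), and STC2, a secreted glycoprotein, 177 ± 17.5 CPM. Both have regulators other than AHR. The detoxification genes CYP1A2, UGT1A1 and GSTA2, which belong to the AHR battery of liver and gut, stayed below 1 CPM in every library, as did SERPINB2. NQO1, a quinone reductase of the same battery that NRF2 also drives, was named after its values were seen and measured 66.1, 42.6, 71.8 and 72.0 CPM in libraries 1 to 4. CYP2S1, an inducible P450, measured 0.773 and 0.308 CPM in libraries 1 and 2 and 2.65 and 2.71 CPM in libraries 3 and 4.

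Enzymes that turn tryptophan into AHR ligands or compete for it had 6 of 14 matched genes expressed (42.9%, beside 64.2%). The list median was 0.15 ± 0.42 log2(CPM + 0.5), below those of all rows at 1.85 and of rows with a symbol at 3.30. TDO2, which opens the kynurenine pathway in liver, had no count in any library, and neither did TPH1, DDC and ASMT of the serotonin and melatonin route. IDO1, the inducible enzyme for the same first step, was near the threshold at 1.55, 2.96, 0.809 and 0.904 CPM. Enzymes further along were detected: KYNU, or kynureninase, at 67.5 ± 14.1 CPM (SD, n = 4), the aminotransferase KYAT3 at 30.8 ± 1.94 CPM and QPRT, which leads to NAD, at 14.5 ± 8.09 CPM.

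Genes acting on CYP1B1 substrates, the oestrogens and retinoids, had 12 of 24 matched genes expressed (50%, beside 64.2%). The list median was 1.98 ± 0.57 log2(CPM + 0.5), below the 3.30 of rows with a symbol. RDH5, a retinol dehydrogenase, measured 92.1 ± 79.5 CPM (SD, n = 4) and was high in library 2, at 211 CPM against 45.3 to 58.3 CPM. ALDH1A3, which makes retinoic acid, measured 69.3 ± 31.9 CPM and was low in library 2 at 21.7 CPM. The oestrogen receptor gene ESR2, the retinoic acid carrier CRABP1 and the retinoic acid hydroxylase CYP26C1 had no count. Calls differed between libraries for CYP19A1 (aromatase, 0.814 to 7.9 CPM), HSD17B1 (0.988 to 5.43 CPM), CRABP2 (0.584 to 1.73 CPM) and CYP26A1 (0.682 to 1.11 CPM).

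Of the genes whose mutations cause developmental glaucoma or related anterior segment defects, 8 of 11 matched were expressed (72.7%, beside 64.2%), and the list median was 4.29 ± 0.32 log2(CPM + 0.5). Besides CYP1B1, the list was led by COL4A1, a basement membrane collagen, at 386 ± 143 CPM (SD, n = 4), and PXDN, a peroxidase that crosslinks that collagen, at 97.8 ± 50.5 CPM. LTBP2, TEK and MYOC stayed below 1 CPM in every library. CYP1B1 was in this list and in the receptor pathway, so its value counts in both.

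**Figure D3:**
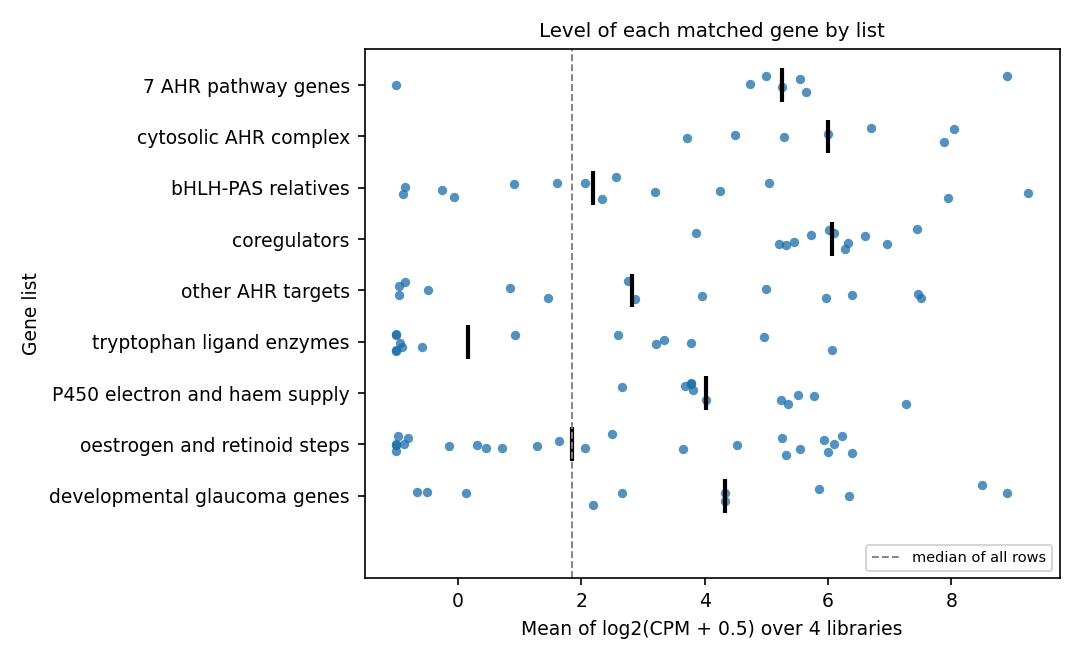
Each point is a matched gene, placed by its mean of log2(CPM + 0.5) over the 4 libraries, for the 7 AHR pathway genes and 8 lists of related genes, with a black bar at each list's median gene and a dashed line at the median of all rows (1.85). The median of rows with a symbol, the nearer comparison for genes matched by symbol, was 3.30 and is not drawn. Points at the left edge are genes with no count, among them CYP1A1, TDO2, TPH1, DDC, ASMT, ESR2, CRABP1 and CYP26C1.

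Library 2 was compared with libraries 1, 3 and 4 as a difference in log2(CPM + 0.5) from their median. The difference was -4.36 for AHR, -2.51 for ARNT, -2.22 for TIPARP, -1.30 for CYP1B1, -1.20 for ARNT2 and 0.18 for AHRR, beside a median of -0.073 over the 12453 genes. With plain CPM that median was -0.49, and the AHRR value was -0.26 while the others stayed negative. A lower difference than that of AHR was found in 0.763% of genes, than that of ARNT in 6.77%, TIPARP in 8.91%, CYP1B1 in 20.9% and ARNT2 in 22.7%. AHRR lay inside the bulk, with 57.5% of genes below it.

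**Figure D4:**
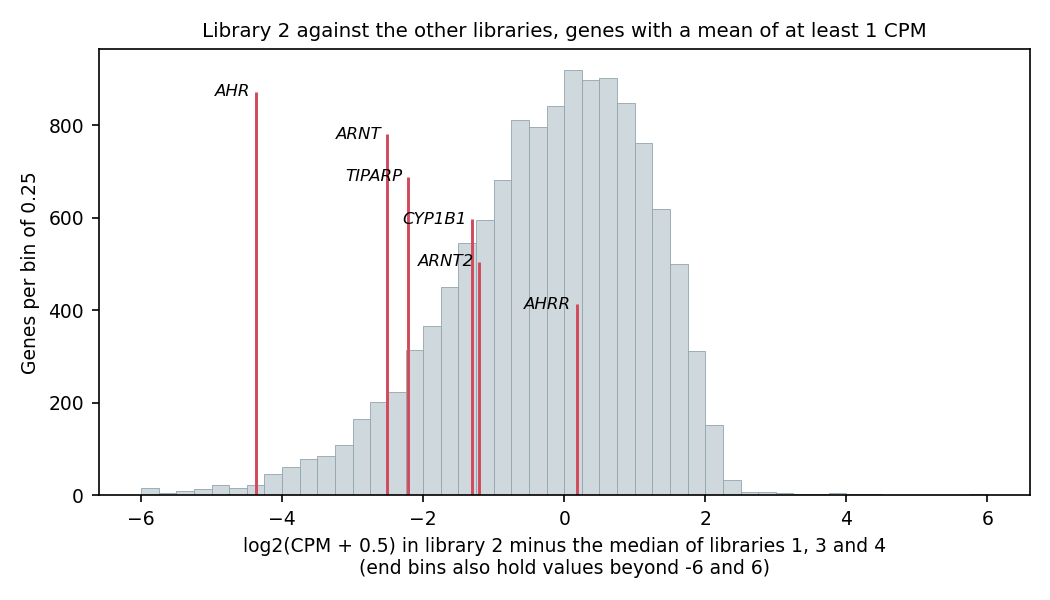
The histogram counts the 12453 genes that averaged 1 CPM or more by the difference in log2(CPM + 0.5) between library 2 and the median of libraries 1, 3 and 4, and red lines mark the 6 detected genes of the pathway. AHR (-4.36) lies in the far left tail, and ARNT, TIPARP, CYP1B1 and ARNT2 lie left of centre. AHRR (0.18) is near the middle and moves to the negative side with plain CPM.

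By Dixon's gap test for 4 samples (at its 95% critical value), library 2 lay apart below the others for ARNT, CYP1B1 and TIPARP, or 3 of the 6 detected genes, against 11.2% of the 12453 genes, and for the same number with plain CPM, against 16.7%. On the log2 scale, an alternative added after the data were seen, 4 genes were called, against 21.5% of genes. AHR was the gene added: its gap ratio was 0.77 in CPM, where libraries 1, 3 and 4 differ among themselves by 24.4 CPM, and 0.92 in log2. The coefficient of variation that edgeR fitted to AHR was 86.1% with library 2 and 10.7% without it, and that of CYP1B1 was 41.8% and 7.42%. Such fitted values are drawn towards those of all genes, whose common value was 44.7% and 13.1%. They are therefore not the spread of each gene alone, which for CYP1B1 was 34.7% and 3.8%.

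**Figure D5:**
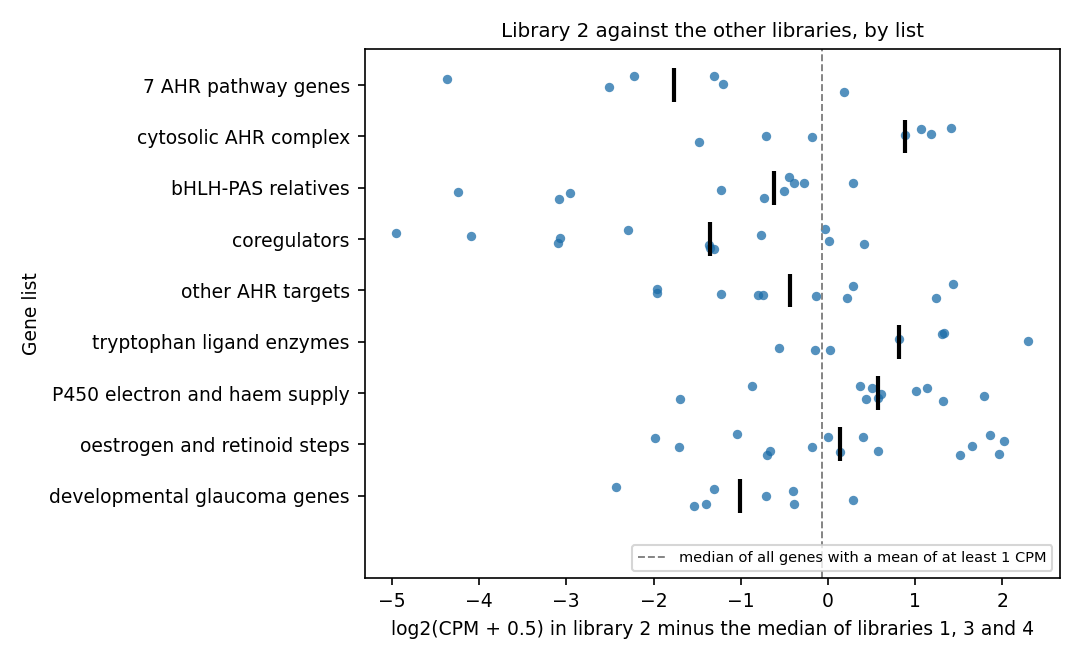
Each point is a gene that averaged 1 CPM or more, placed by its difference in log2(CPM + 0.5) between library 2 and the median of the other libraries, with a black bar at each list's median and a dashed line at the median of all such genes (-0.073). The medians were -1.76 for the AHR pathway genes and -1.36 for the coregulators, and 0.89 for the cytosolic complex and 0.57 for P450 electron and haem supply.

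The pathway and its neighbours thus did not shift alike in library 2. The median difference was -1.76 for the 6 detected pathway genes, -1.36 for coregulators, -1.01 for the glaucoma genes and -0.62 for bHLH-PAS relatives. It was 0.89 for the chaperone complex, 0.82 for tryptophan enzymes and 0.57 for electron and haem supply. With plain CPM every one of these medians was lower by about the shift of all genes, and each kept its sign. The oestrogen and retinoid list turned, from 0.14 with TMM to -0.31 with plain CPM, and other AHR targets measured -0.44 and -0.88. The chaperone complex was split within itself. Its median was the value of HSP90AB1, with CDC37 at 1.07 and PTGES3 and CUL4B at -0.71 and -1.48. By Dixon's gap test, 3 of its 7 genes lay apart above and 1 below, against 21.8% and 11.2% of the 12453 genes.

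Genes whose level followed that of CYP1B1 most closely over the 4 libraries were sought by the root mean square difference of log2(CPM + 0.5), each gene centred on its own mean, among 7438 named genes that averaged 10 CPM or more. The 5 nearest were MBD5, AZI2, MKRN2, MYH9 and RLF, at 0.0098 to 0.014 log2 units. MYH9, nonmuscle myosin heavy chain, measured 2134, 841, 2087 and 1999 CPM in libraries 1 to 4. The likeness rests on library 2: 430 genes (5.78%) lay within 0.1 log2 units of CYP1B1 over 4 libraries and 4036 (54.3%) over the 3 others. Of the pathway, ARNT2 was the nearest to CYP1B1 at 0.090 log2 units, followed by TIPARP at 0.41, ARNT at 0.51, AHRR at 0.66 and AHR, the receptor, at 1.32.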

How the data were processed

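Per the labels, total RNA of RF/6A was sequenced on a BGISEQ-500. The authors deposited estimated counts per Ensembl rhesus gene, rounded to whole numbers and not divided by length. The tools Salmon and DESeq2 appear, per the submitters' processing notes, with neither version nor role. For the build, the annotation release and the strandedness, nothing is given in the sources used here. Salmon shares reads among similar transcripts, an error that counting intervals do not cover. Symbols came from a table of Ensembl identifiers (14654 of 21314 rows matched, and unmatched rows held 13.1% to 21.7% of counts). Of 128 genes in the 9 pathway lists, 113 matched a row (BMAL1 and BMAL2 as ARNTL and ARNTL2). The others were treated as not measured.

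Counts were scaled by TMM in edgeR 4.0.16 (R 4.3.3) and expressed as CPM, with a pseudocount of 0.5 on the log2 scale. Per-gene coefficients of variation came from edgeR's dispersions. Plain CPM, DESeq2 1.42.0 size factors, scaling on rows kept by filterByExpr, other thresholds and leaving out each library were tried. There is 1 group, so no test between groups was run. Code was tested on simulated data. The members, lists and markers were chosen with earlier results of these data known. Genes named are the members, the 3 highest of each list, genes with no count, genes with mixed calls, the 5 highest P450 genes and the 5 nearest to CYP1B1 in pattern, apart from some listed genes that are counted in their lists but not reported here by name. Others are said to have been chosen after their values were seen, as were SIM1, NPAS3, NPAS4, HSP90AB1, SERPINB2, CYP1A2, UGT1A1, GSTA2, LTBP2, TEK, MYOC and FECH.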

Additional observations from a re-analysis of the deposited data

Results flagged for a closer look

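Dixon's gap test was run on 55 values (named genes with a count and list medians), and 23 passed its 95% critical value. Chance alone passes it in about 1 of 20 groups. Among the 12453 genes that averaged 1 CPM or more, however, library 2 lay apart below in 11.2% and above in 21.8%. The 23 are to be read against those shares, not against 1 in 20. They include the 5 genes picked for their likeness to CYP1B1, whose result that choice set, and list medians that reuse genes already counted. The count of 23 therefore cannot show an excess over those shares. In 23 of 23 the outlying sample was library 2, low in 17 and high in 6, so these values are not independent of each other.

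The level in library 2 was low for the following genes, in CPM: ARNT (10.1), CYP1B1 (247), TIPARP (9.56), PTGES3 (179.9), HIF1A (52.3), ARNTL2 (22.02), NFE2L2 (65.9), ALDH1A3 (21.7), PXDN (22.3), MBD5 (10.2), AZI2 (54.5), MKRN2 (11.5), MYH9 (841) and RLF (11.7). The last 5 were found by their likeness to CYP1B1, so they share its low library by construction.

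It was high, in CPM, for CDC37 (416), QPRT (26.5), ALAS1 (71.3), UROD (90.8) and RDH5 (211). With plain CPM, ALAS1 (56.6 in library 2 against 51.8 to 54.3) and QPRT (21.05 against 10.1 to 12.7) no longer passed the test, and each of the other genes named here did.

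As list medians in log2(CPM + 0.5), library 2 was low for the 7 pathway genes (3.41), the coregulators (4.76) and the glaucoma genes (3.81), and high for electron and haem supply (5.08).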

How the results depend on the processing

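The mean CPM of each of the 7 genes moved by less than 1 SD under plain CPM, DESeq2 size factors, filterByExpr and leaving out each library, because library 2 makes the SD wide: AHR ranged from 61.9 to 107 CPM and CYP1B1 from 464 to 647. The count of 6 expressed members held under each of these and at 0.5 and 2 CPM. Leaving out a library here also refitted the TMM factors. Without library 2 this gave 107 CPM for AHR and 647 CPM for CYP1B1. The means of libraries 1, 3 and 4 given above, not refitted, were 98.7 and 599 CPM. With plain CPM the AHRR difference of library 2 turned from 0.18 to -0.26, since leaving out the TMM factors (0.793 for library 2, 1.08 to 1.09 for the others) lowers every gene of library 2 against the rest. The median of the tryptophan list moved from 0.15 to 0.74 with a pseudocount of 1, which raises values near 0 by construction. Expressed P450 rows numbered 7 to 9 across the scalings and left-out libraries, and bHLH-PAS relatives 8 to 10. Expressed genes around CYP1B1 substrates numbered 12 to 14 across these, 17 at 0.5 CPM and 11 at 2 CPM.

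No paired analysis was possible because the labels give 1 group, so no groups share replicate numbers. Levels per length, the search of promoters and protein identities were not run, since no transcript lengths or sequences were used here. At this depth a count of 0 allows up to 0.0363 CPM over the 4 libraries, and intervals and floors cover counting error only.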
